A study of Mus musculus with 10 samples.

Results

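Genes that type I interferon switches on were described in mouse blood. The group holds 37 genes, taken by gene symbol from a table of 30984 genes, and all 37 had enough reads to be among the 17268 genes tested. Messenger RNA was sequenced from 10 libraries. The treatment label gives 6 of them as burn wound healing, called burn here, and 4 as burn wound healing-NC, called NC here. The letters NC are not expanded in the labels, so it is not known whether NC blood came from burned animals. No sample label names manganese chloride, which the series title does, nor a strain, sex, age or time after injury, and nothing says whether libraries came from separate animals. The p-values therefore measure the spread between these libraries only, which may be technical. Whole blood is the labelled material, although lymphocyte and monocytes stand among the labels too. Markers of T cells, B cells, monocytes and neutrophils had reads in every library, as had markers of red cells, which took 7.17% to 12.8% of the counts as haemoglobin, so the libraries held RNA of several cell types. Total counts were 30677206 to 36379663 per library.

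Type I interferons bind a receptor of the chains Ifnar1 and Ifnar2. Its kinases Jak1 and Tyk2 phosphorylate Stat2 among other factors, which with Irf9 forms a complex that binds a DNA element, the interferon-stimulated response element (ISRE), in front of the target genes. The products sense foreign nucleic acid, block translation, replication or release of viruses, and feed back on the pathway, and blood leukocytes carry a low resting level of many of them. The members are given below by these roles.

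The 37 genes lie on 14 chromosomes, several of them side by side (mm10 positions from GENCODE M21). The 4 Ifit genes sit together on chromosome 19, in the order Ifit2, Ifit3, Ifit3b and Ifit1, with gaps of 7.11, 19.2 and 27.5 kb. Oas2 and Oas3 are 3.24 kb apart on chromosome 5. Rsad2 and Cmpk2 lie head to head on chromosome 12 with 12.8 kb between them, and Parp9 and Dtx3l overlap head to head by 682 bases on chromosome 16. How the authors treated strand and reads shared between copies is not given in the sources used here. The values of Parp9 and Dtx3l are therefore uncertain within their overlap, and those of near-identical copies are uncertain as well. The Ifit3 transcript matched Ifit3b over 1700 bases at 97.8% identity, and Oas1a matched Oas1g over 1861 bases at 97.6%. Slfn8 matched Slfn9 over 3857 bases at 92% and also matched Slfn10-ps, Mx1 matched Mx2 over 920 bases at 94.8%, and Isg15 matched the sequence AC151275.1 over 482 bases at 95.2%. A stretch of Oas3 was shared with several unrelated genes. Longer overlaps with non-coding genes were annotated at Dhx58, Usp18, Herc6, Rtp4, Slfn5 and Parp9.

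The ISRE in the promoter was not itself used to choose the genes. The class they were chosen for is bound through it, so its share is no independent result about these libraries. The ISRE core, a GAAA followed by any 2 bases and another GAAA, was searched on both strands in 300 bases around each annotated start, 250 before and 50 after (RefSeq, GRCm38.p6). Of the 27 members with a promoter sequence, 14 held it, or 51.9%, against 3.99% of 27025 genes with one. Matches that overlap each other were counted singly. The shorter STAT motif TTCNNNGAA was held by 5 of 27, or 18.5%, against 9.55% of all. Irf7, Irf9 and Ifit2 were among the 13 without the ISRE core in this window. Below are the promoters of the 5 members with the highest mean level among those that hold the motif and are given in full, 5′ to 3′ on the gene's strand, with the motif on either strand in capitals. They show how the element differs in number, sequence and place between genes whose values follow.
Isg15, chr4:156200769-156201068, minus strand: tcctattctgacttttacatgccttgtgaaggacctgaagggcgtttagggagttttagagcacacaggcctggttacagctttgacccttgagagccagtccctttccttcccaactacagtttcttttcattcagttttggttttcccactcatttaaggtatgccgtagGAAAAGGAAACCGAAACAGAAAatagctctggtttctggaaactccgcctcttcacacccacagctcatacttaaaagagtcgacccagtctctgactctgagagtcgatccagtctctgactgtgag
Rsad2, chr12:26456403-26456702, minus strand: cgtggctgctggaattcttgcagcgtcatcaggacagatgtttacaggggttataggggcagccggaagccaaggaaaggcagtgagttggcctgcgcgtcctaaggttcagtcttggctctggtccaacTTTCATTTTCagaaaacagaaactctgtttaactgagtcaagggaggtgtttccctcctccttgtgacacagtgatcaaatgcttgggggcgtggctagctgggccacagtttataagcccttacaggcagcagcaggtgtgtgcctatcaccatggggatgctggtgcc
Trim30a, chr7:104465144-104465443, minus strand: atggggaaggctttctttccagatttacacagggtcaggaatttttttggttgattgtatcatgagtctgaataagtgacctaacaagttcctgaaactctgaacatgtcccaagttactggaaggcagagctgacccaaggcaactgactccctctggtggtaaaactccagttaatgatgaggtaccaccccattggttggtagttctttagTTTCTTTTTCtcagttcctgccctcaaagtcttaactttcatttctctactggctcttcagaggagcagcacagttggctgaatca
Oas1a, chr5:120907476-120907775, minus strand: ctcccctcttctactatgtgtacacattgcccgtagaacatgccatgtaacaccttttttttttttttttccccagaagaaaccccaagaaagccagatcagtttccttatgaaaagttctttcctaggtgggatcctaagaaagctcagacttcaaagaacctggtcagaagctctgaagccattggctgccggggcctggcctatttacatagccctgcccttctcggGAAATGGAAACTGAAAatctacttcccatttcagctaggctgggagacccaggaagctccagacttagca
Oas3, chr5:120777610-120777909, minus strand: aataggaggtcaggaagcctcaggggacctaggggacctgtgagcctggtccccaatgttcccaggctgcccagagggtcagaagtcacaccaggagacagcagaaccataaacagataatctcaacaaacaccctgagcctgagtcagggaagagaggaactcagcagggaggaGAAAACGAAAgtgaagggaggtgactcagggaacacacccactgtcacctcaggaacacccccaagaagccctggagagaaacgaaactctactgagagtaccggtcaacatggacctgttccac
In the promoter of Isg15, 3 matches overlap into one run, which starts 78 bases before the annotated start. Oas1a has 2 that overlap and end 5 bases before its start. Rsad2, Trim30a in the promoter printed here, and Oas3 have 1 each, at 120, 36 and 75 bases before the start, and those of Rsad2 and Trim30a lie on the opposite strand.

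The members were expressed at very unequal levels. Levels between genes are compared on the authors' FPKM scale, which divides a count by gene length and library total. Ifi27l2a, a small hydrophobic protein gene of the ISG12 family, had the highest mean, 367 ± 97 FPKM (SD, n = 10), and Isg15, a ubiquitin-like modifier, followed at 329 ± 141 FPKM. Rsad2, which encodes viperin, stood at 185 ± 84 FPKM. The ranges of these 3 genes over the libraries overlapped. Epsti1 (64.3 FPKM), Bst2 (62.4) and Irf7 (50.8) came next, and only these 6 members reached a mean of 50 FPKM. A further 5 lay under a mean of 5 FPKM, namely Ifih1, Herc6, Ifit3b, Mx2 and, lowest, Ifi44 at 1.13 ± 0.27 FPKM. Cmpk2, the chromosomal neighbour of Rsad2, had only 7.69 ± 2.07 FPKM.

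**Figure D1:**
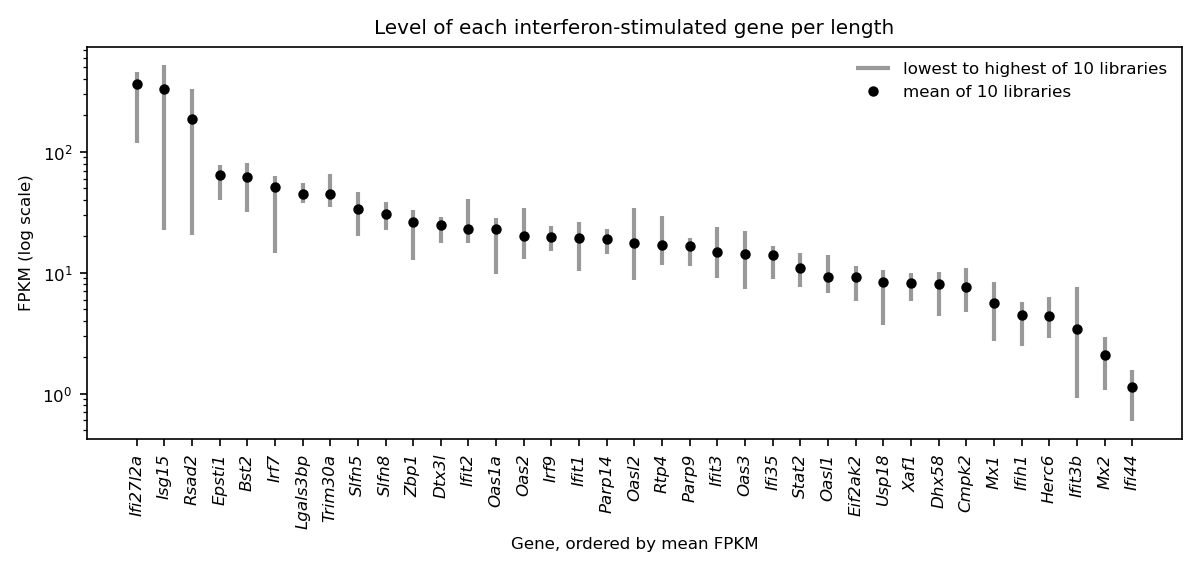
Level of each gene in FPKM on a log axis, ordered by the mean over the 10 libraries (points), with lines from the lowest to the highest library. Ifi27l2a, Isg15 and Rsad2 lead, at means of 367, 329 and 185 FPKM, and the line is longest for Isg15, from 22.7 to 524 FPKM.

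One library, NC 1, stood apart, over all genes as well as for these, and the comparison of the groups is given with and without it. Its chi-square per degree of freedom over all genes was 212 to 238 against the other NC libraries, which had 69.3 to 125 among themselves. The burn libraries had 14.2 to 44.9 among themselves, so the NC libraries other than NC 1 also differed more than the burn libraries did. Values from here on are CPM, counts scaled to a common library total with TMM factors. NC 1 had the lowest value of all 10 libraries for 29 of the 37 members, where it was lowest for 24.7% of all genes tested. It had the highest value for 1 member, Ifit2, and for 19% of all genes. NC 3 had similar shares over all genes, lowest for 22.1% and highest for 17.2%, but was lowest for 3 members and highest for 4. NC 4 was the highest library for 16 members, against 8.36% of all genes. Averaged over the 37 members, the log2 CPM was 5.11 in NC 1 and 6.18, 5.93 and 6.27 in NC 2 to 4, while the burn libraries ran from 5.78 to 6.11. NC 1 therefore lay below and NC 2 and 4 above every burn library. The median SD of a member was 0.23 log2 units within burn and 0.50 within NC, and 0.26 within NC when NC 1 was left out. The same medians over all genes tested were 0.21, 0.34 and 0.30. A single outlying library, by Dixon's test, was found within NC for 4 members, beside 6.97% of all genes, and within burn for 0 members, beside 8.74%.

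Summed cell markers were at an extreme in NC 1 for several cell types. It had the highest summed level of the 20 mature neutrophil markers, 8123 CPM, against 2079.8 to 3999 CPM in burn and 1579.6, 2245 and 6446 CPM in NC 2 to 4. It also had the highest summed level of the 12 platelet markers, 14250.4 CPM, against 2862 to 5912 CPM in burn, and the lowest of the 8 red cell markers, 76905 CPM, against 87658 to 138242 CPM in burn. Neutrophil and red cell markers were above 0 in every library, and among platelet markers Gp1bb alone was at 0 in a library. Markers of plasmacytoid dendritic cells, the main interferon producers of blood, summed to 441 CPM in NC 1, 482 to 556 CPM in the other NC libraries and 499 to 668 CPM in burn. By sum, NC 1 was also the lowest library for nonclassical monocyte markers, at 1341 CPM against 1613 to 2053 CPM in burn. The same held for T cell markers, at 1349 CPM against 1546 to 2065 CPM. Conventional dendritic cell markers also had their lowest sum in NC 1, 659 CPM against 699.8 to 1006 CPM in burn. The mean log2 CPM of these 10 markers was instead highest in NC 1, at 3.28 against 2.68 to 2.82 in burn. NC 1 was the lowest library for 2 of the 10. NC 1 had the highest sum of connective tissue and epithelial markers, at 486 CPM against 215 to 264 CPM in all other libraries, with Krt5 and Krt14 at 0 in a library. On mean log2 CPM over the 8 of these that were tested, every NC library lay above every burn library. The values were 2.75 in NC 1, 2.29 to 2.31 in NC 2 to 4 and 0.44 to 2.12 in burn. The plasmacytoid list of 12 includes the member Bst2, and its marker Klk1 was at 0 in a library. For the remaining lists the sum in NC 1 lay inside the range of the other libraries. It was 7082 CPM for classical monocyte markers, against 4703 to 7469 CPM elsewhere, and 4066 CPM for B cell markers, against 3905 to 6177 CPM. Natural killer cell markers summed to 624 CPM in NC 1, against 380 to 1378 CPM elsewhere, with NC 4 the lowest and NC 3 the highest. In whole blood, fewer cells of a type and less RNA per cell cannot be told apart, and the part of these markers in the results below was not tested.

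**Figure D2:**
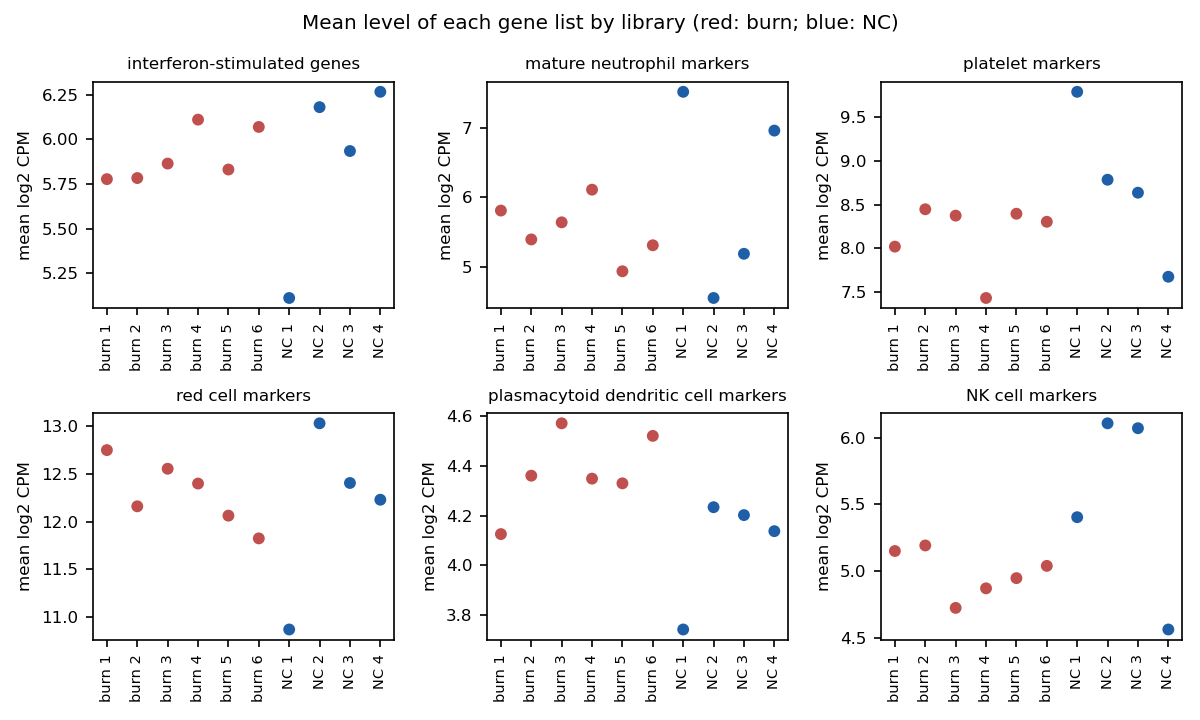
Mean log2 CPM of the 37 interferon-stimulated genes and of 5 lists of cell markers in each library (red, 6 burn; blue, 4 NC). NC 1 is the lowest library on the interferon-stimulated genes, at 5.11, and the highest on neutrophil and platelet markers, and each panel has its own axis.

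**Figure D3:**
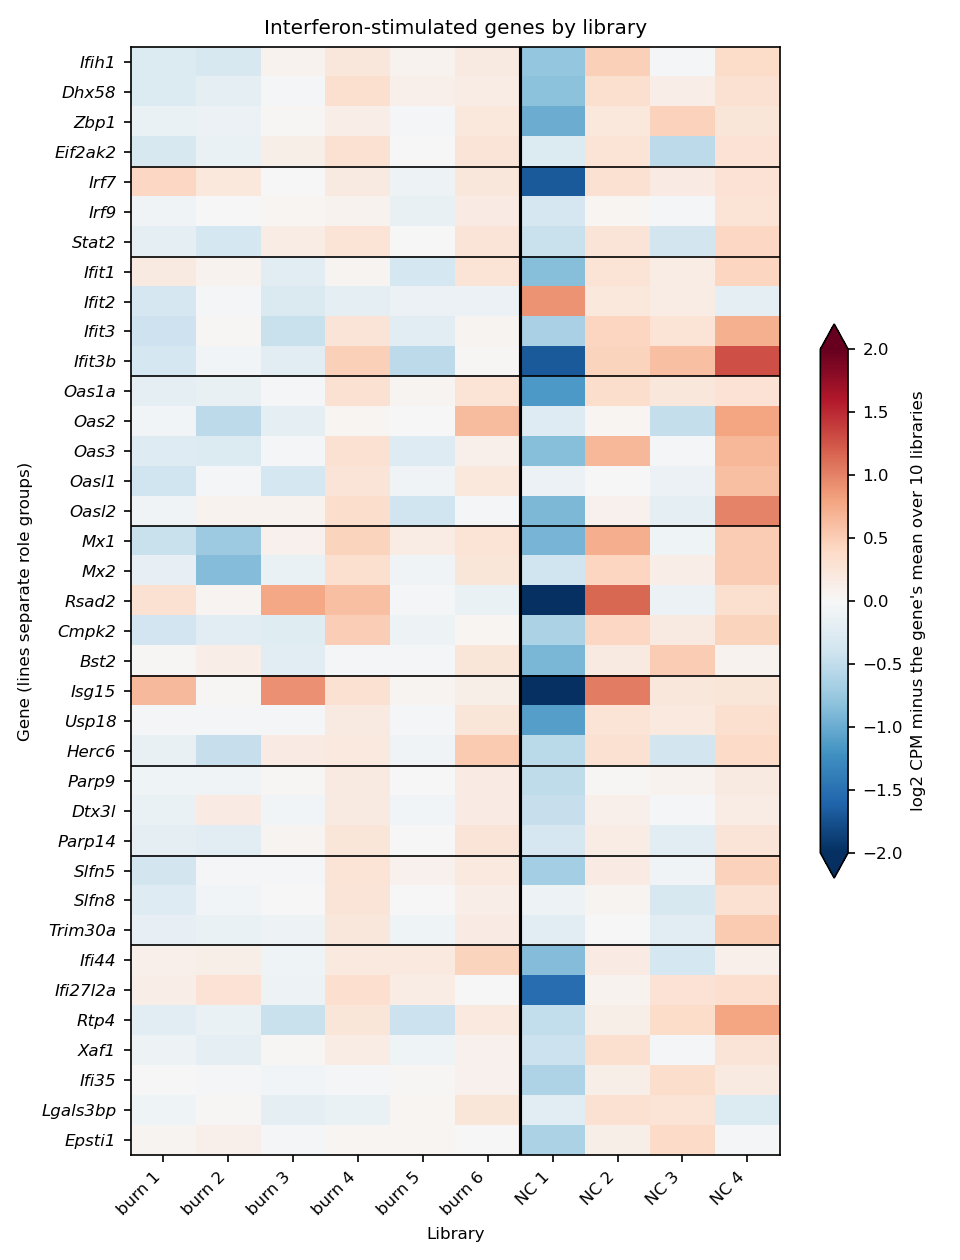
Each member's log2 CPM minus its mean over the 10 libraries, by library, with black lines between role groups and between burn (left) and NC (right). The colour scale ends at 2 in either direction. The NC 1 column is blue for nearly all genes, with Isg15 and Rsad2 beyond the end of the scale and Ifit2 in red.

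The comparison of burn with NC asked whether the interferon-stimulated genes of blood differed between the treatment groups. None of the 37 members passed the test. In edgeR's quasi-likelihood test adjusted over all genes, 0 members and 0 of all 17268 genes (0%) came under the threshold of 0.05. No member had an adjusted p below 0.393. At an unadjusted p under 0.05 there was 1 member, Ifit2, or 2.70% of the list, against 11.3% of all genes (7% lower and 4.25% higher in burn). DESeq2 called 0 members, where it called 0.442% of all genes. The groups overlapped for all 37 members, against 2.03% of all genes whose groups did not. In burn, 20 members had lower and 17 higher values, beside 45.3% of all genes lower. The median log2 difference (burn minus NC) was -0.03, beside 0.02 over all genes. Lower values in burn were also found for 19 of 20 neutrophil markers (median -1.03), 11 of 11 tested platelet markers (-0.72) and 8 of 8 tested connective tissue and epithelial markers (-1.18). Natural killer cell markers had 12 of 12 lower (-0.81) and conventional dendritic cell markers 8 of 10 (-0.23). B cell markers had 12 of 12 higher (0.31) and plasmacytoid ones 7 of 10 (0.22). In each of these marker lists 0 genes passed in edgeR. DESeq2 called 3 of the 8 connective tissue and epithelial markers, 1 natural killer cell marker and 1 conventional dendritic cell marker. It called 0 of the neutrophil, platelet, B cell and plasmacytoid markers. The part of these cell types was not tested. The 95% interval of the difference included 0 for 36 members. A difference smaller than the distance from the estimate to the ends of its interval could not be told from 0 here. For Isg15 the interval ran from -0.98 to 1.42.

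The split between lower and higher members moved with NC 1, with the scaling and with the kind of fit. Without NC 1, 36 of the 37 members had lower values in burn, beside 47.3% of all genes, and Ifi44 was the exception. NC 1 was the lowest NC library for 30 of the 37, so leaving it out raised their NC mean. A move toward lower values in burn follows from that removal, which also enters the p-values and overlaps given below. The median difference was then -0.21 for the members and 0.01 for all genes. Cell marker lists differed between the groups there too. Values without NC 1 were lower in burn for 12 of 12 natural killer cell markers (median log2 difference -0.92), 8 of 8 red cell markers (-0.30), 10 of 11 platelet markers (-0.24), 15 of 20 neutrophil markers (-0.43) and 9 of 10 nonclassical monocyte markers (-0.16). They were also lower for 7 of 8 connective tissue and epithelial markers (-0.99) and 7 of 10 conventional dendritic cell markers (-0.29). Classical monocyte markers had 6 of 10 lower (-0.07) and T cell markers 7 of 12 (-0.06). Values were lower for 2 of 10 plasmacytoid dendritic cell markers (0.16) and 0 of 12 B cell markers (0.34). The part of these cell types in the members' shift was not tested. Again 0 members passed in edgeR (0% of all genes) or DESeq2 (0.133%), and no member had an adjusted p below 0.639. Unadjusted, 9 members had p under 0.05, all lower, against 7.57% of all genes in either direction and 4.14% in the lower one. They were Zbp1, Ifit2, Ifit3, Ifit3b, Oas3, Cmpk2, Usp18, Rtp4 and Ifi35. The groups no longer overlapped for 3 of these, Zbp1, Ifit3 and Ifi35, or 8.11% of members, against 3.17% of all genes. With library totals in place of TMM factors the split without NC 1 was 32 lower and 5 higher, beside 37.9% of all genes lower. A limma fit on log2(FPKM + 1) of the deposited values gave the same 32 and 5, beside 36.1%. FPKM is scaled by library totals too, so it differs from the former setting in the fit rather than the library scaling. With all 10 libraries, library totals in edgeR gave 16 lower and 21 higher, and the limma fit on FPKM gave 9 and 28. The share of all genes lower went from 45.3% to 37.7% and 36%. The median over all genes then went from 0.02 to 0.07 and 0.05, and that of the members from -0.03 to 0.02 and 0.07. Leaving out NC 2 gave 15 lower and 22 higher, beside 50.2% of all genes lower, and leaving out NC 4 gave 16 and 21, beside 53.9%. Other settings that kept NC 1 leaned to lower values. DESeq2 gave 24 lower and 13 higher, beside 50.5%, and voom with sample quality weights 29 and 8, beside 42.9%. No filter on low counts gave 27 and 10, beside 53.1%, and leaving out burn 6 gave 27 and 10, beside 46.5%.

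**Figure D4:**
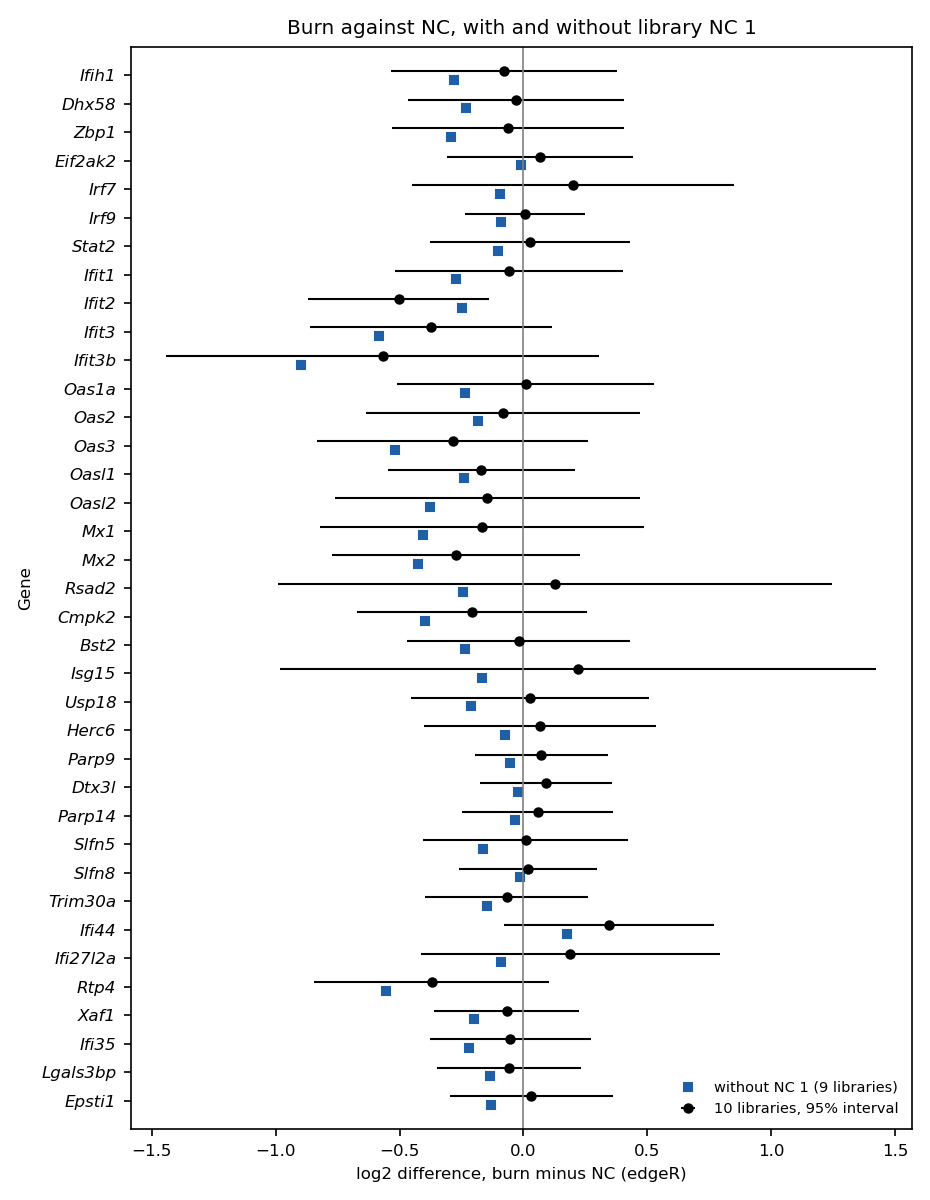
Each member's log2 difference in edgeR, as burn minus NC, with all 10 libraries (black, 95% interval) and without NC 1 (blue squares). The black intervals include 0 except for Ifit2, and the squares lie left of 0 for every member but Ifi44.

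Among the sensors of foreign nucleic acid, NC 1 was the lowest library for 3 of 4. Zbp1 (ENSMUSG00000027514; chromosome 2, 173206612 to 173218923), a sensor of Z-form nucleic acid linked to cell death, had 82.5, 90.2 and 105 CPM in the lowest, median and highest burn library. In NC 1 to 4 it had 45.7, 106, 125 and 107 CPM. NC 1 lay under all burn libraries and the other 3 NC libraries above them. Its log2 difference was -0.06 (SE 0.21) with an edgeR adjusted p of 0.937, and -0.29 without NC 1. Eif2ak2 (ENSMUSG00000024079; chromosome 17, 78852564 to 78882573), the kinase PKR, which halts translation on double-stranded RNA, had 36.8, 47.9 and 56.4 CPM across burn. In NC 1 to 4 it had 38.0, 55.6, 32.0 and 56.0 CPM, so NC 3 and not NC 1 was the lowest, and the burn and NC ranges overlapped. The difference was 0.07 (SE 0.17; edgeR adjusted p 0.914) and -0.01 without NC 1. Ifih1, the RNA sensor MDA5, had means of 35.4 ± 5.5 CPM in burn and 37.4 ± 12.8 CPM in NC. Dhx58, its relative LGP2, stood at 26.3 ± 4.1 and 26.8 ± 8.3 CPM.

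The 3 transcription factors of the pathway had their lowest value in NC 1. Irf7 (ENSMUSG00000025498; chromosome 7, 141262706 to 141266481), the factor that drives interferon-alpha genes, had 169, 206 and 241 CPM in the lowest, median and highest burn library. The NC libraries held 56.1, 223, 203 and 221 CPM. NC 1 lay 3.72-fold below the median of the other 9 libraries, and the other NC libraries fell inside the burn range. The log2 difference was 0.20 (SE 0.30; edgeR adjusted p 0.835; exact two-sided permutation p 0.457) and -0.09 without NC 1. Irf9, the DNA-binding part of the complex with Stat2, varied far less. Its mean was 105 ± 8 CPM in burn and 105 ± 18 in NC, from 82.7 in NC 1 to 127 in NC 4. Stat2 had 64.8 ± 10.9 and 63.7 ± 19.0 CPM.

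The Ifit family, whose proteins bind viral RNA or halt its translation, split in NC 1. Ifit2 (ENSMUSG00000045932; chromosome 19, 34550694 to 34576419) had 68.9, 78.8 and 85.0 CPM across burn. In NC 1 to 4 it had 163, 101, 97.1 and 77.4 CPM. NC 1 to 3 lay above every burn library and NC 4 among them. Its log2 difference of -0.50 (SE 0.17, 95% interval -0.87 to -0.14) had the smallest p of the members, unadjusted 0.011 in edgeR, with an adjusted p of 0.393 and a DESeq2 adjusted p of 0.176. The exact permutation p, unadjusted, was 0.0238. Without NC 1 the difference was -0.25 (unadjusted edgeR p 0.0308). Its neighbours had the opposite extreme. Ifit1 had 27.7 CPM in NC 1 and 60.6, 55.6 and 67.8 CPM in NC 2 to 4, with 39.2 to 60.6 CPM in burn. Ifit3 had 15.9, 33.8, 30.03 and 40.6 CPM in NC 1 to 4 and 18.3 to 29.8 CPM in burn, so that NC 2 to 4 lay above every burn library. Ifit3b had 1.87, 8.16, 9.16 and 14.7 CPM in NC 1 to 4 and 4.19 to 8.37 CPM in burn. Without NC 1 the differences of Ifit3 and Ifit3b were -0.58 and -0.90, the most negative being that of Ifit3b, with an edgeR adjusted p of 0.639 for both. The sum of the 2 copies does not depend on how shared reads were split, provided none was dropped or counted for both, which is not known. That sum was 28.9 ± 5.9 CPM in burn and 38.6 ± 15.6 CPM in NC (exact permutation p 0.338). It stood at 17.8, 41.9, 39.2 and 55.4 CPM in NC 1 to 4.

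The Oas genes encode enzymes that make the messenger of RNase L, and related proteins. Oas1a (ENSMUSG00000052776; chromosome 5, 120896256 to 120907521) had 36.7, 41.7 and 51.3 CPM in the lowest, median and highest burn library. In NC 1 to 4 it had 18.8, 53.0, 48.7 and 50.9 CPM. The difference was 0.01 (SE 0.24; edgeR adjusted p 0.992), and -0.24 without NC 1. Summed with its copy Oas1g it stood at 49.8 ± 7.4 and 48.2 ± 18.8 CPM. Oas3 (ENSMUSG00000032661; chromosome 5, 120753098 to 120777661) had 79.5, 86.5 and 118 CPM across burn and 53.0, 152, 93.1 and 151 CPM in NC 1 to 4. NC 2 and 4 stood above every burn library, NC 3 among them and NC 1 below. Its difference was -0.29 (SE 0.25; edgeR adjusted p 0.695), and -0.52 without NC 1. NC 4 led the family elsewhere. It held 149 CPM of Oas2, 211 CPM of Oasl2 and 35.6 CPM of Oasl1, which in mice limits translation of Irf7. The other libraries had at most 133, 135 and 27.9 CPM of these genes, each of these maxima in burn.

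Rsad2 and Isg15 had the widest spread between libraries of all members. Rsad2 (ENSMUSG00000020641; chromosome 12, 26442746 to 26456452), whose product viperin makes a nucleotide that ends viral RNA chains, had 619, 767 and 1159.9 CPM in the lowest, median and highest burn library. In NC 1 to 4 it had 89.8, 1492, 626 and 839.9 CPM, so NC held both extremes, 16.6-fold apart. Isg15 (ENSMUSG00000035692; chromosome 4, 156199424 to 156200818) had 191, 219 and 354 CPM across burn and 16.2, 384, 219.7 and 224 CPM in NC 1 to 4, with extremes 23.6-fold apart. The median over all genes tested was 1.95-fold. NC 1 lay 13.8-fold below the median of the other 9 libraries for Isg15 and 9.28-fold below it for Rsad2. Reads of Isg15 per library ran from 529 to 13265. The log2 differences were 0.13 (SE 0.51) for Rsad2 and 0.22 (SE 0.55) for Isg15, with edgeR adjusted p of 0.947 and 0.911, and -0.24 and -0.17 without NC 1. Red cell and nonclassical monocyte markers had the same extremes as both genes, with NC 2 highest, at sums of 147068 and 2199 CPM, and NC 1 lowest. Their part in the result was not tested.

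**Figure D5:**
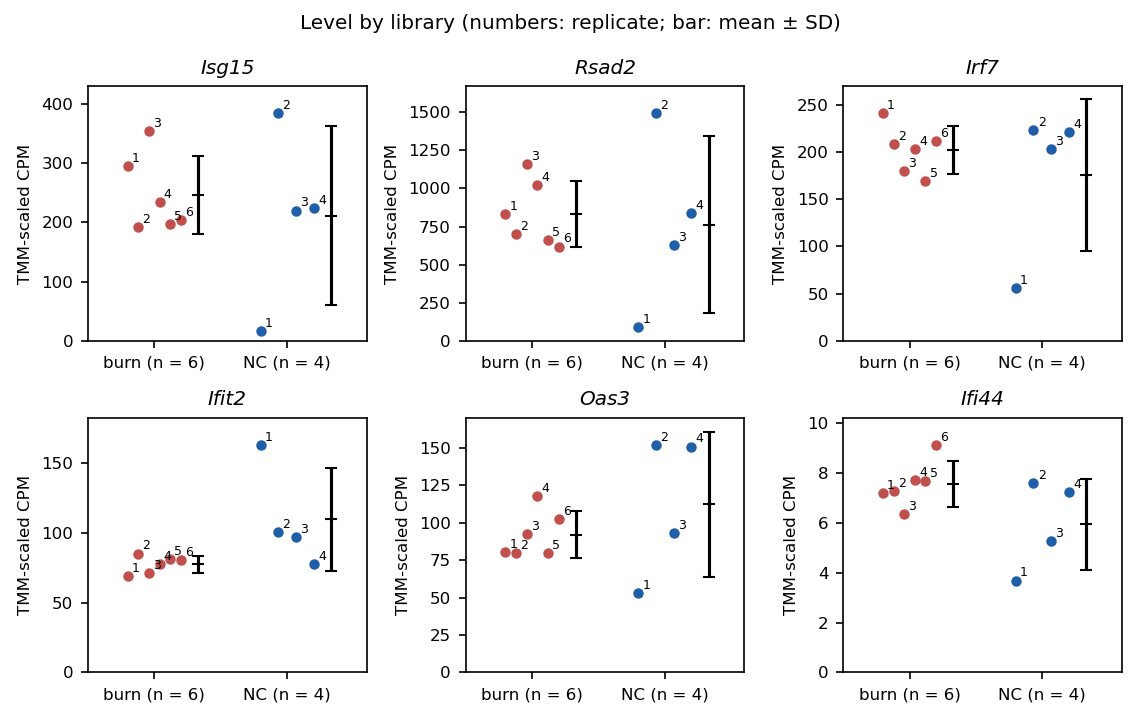
TMM-scaled CPM of 6 members in each library, numbered by replicate, with the mean ± SD of 6 burn and 4 NC libraries. NC 1 is far below the other libraries for Isg15, Rsad2 and Irf7, at 16.2, 89.8 and 56.1 CPM, and far above them for Ifit2, at 163 CPM.

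The other antiviral effectors varied less. Cmpk2, a mitochondrial nucleotide kinase, had 30.1 ± 7.2 CPM in burn and 34.8 ± 10.3 in NC. Bst2, the tether that holds budding virus on the cell, had 56.1 ± 6.0 and 56.9 ± 20.4 CPM, with 29.3 CPM in NC 1 and 78.2 CPM in NC 3. The Mx genes encode GTPases that block viruses, and many laboratory strains carry defective forms of them. GENCODE lists Mx2 (ENSMUSG00000023341; chromosome 16, 97535308 to 97560900) as a polymorphic pseudogene. Mx2 had 3.96, 6.72 and 9.01 CPM in the lowest, median and highest burn library and 5.49, 9.66, 7.87 and 10.3 CPM in NC 1 to 4. Its lowest library was burn 2, and its difference of -0.27 (SE 0.23; edgeR adjusted p 0.679) was -0.43 without NC 1. Mx1 had 20.3 ± 5.8 and 22.8 ± 10.1 CPM.

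Usp18 and Herc6 work with Isg15. Usp18, which takes Isg15 off its targets and holds back the interferon receptor, varied little within burn. It had 22.2 CPM in the lowest and 26.7 CPM in the highest burn library, and 10.5, 27.5, 26.0 and 28.3 CPM in NC 1 to 4. Its log2 difference was 0.03, and -0.21 without NC 1. Herc6, the main ligase that attaches Isg15 in mice, had 41.1 ± 9.6 and 39.2 ± 12.3 CPM, with its highest value in burn 6. NC 1 lay 13.8-fold below the median of the other libraries for Isg15, 2.43-fold for Usp18 and 1.63-fold for Herc6.

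Dtx3l and Parp9, partners in a ubiquitin ligase complex, and Parp14, an ADP-ribosyltransferase, were among the steadiest members. Dtx3l (ENSMUSG00000049502; chromosome 16, 35926511 to 35939151) had 129, 147 and 160.4 CPM in the lowest, median and highest burn library and 103, 152, 138 and 157 CPM in NC 1 to 4. NC 1 was again the lowest and the other libraries overlapped. The difference was 0.09 (SE 0.12, 95% interval -0.17 to 0.36; edgeR adjusted p 0.813) and -0.02 without NC 1. Parp9 had 82.8 ± 6.5 and 78.7 ± 15.3 CPM, and Parp14 178 ± 24 and 171 ± 34 CPM. Highest and lowest library were 1.56-fold apart for Dtx3l, 1.62-fold for Parp9 and 1.52-fold for Parp14, against a median of 2.39-fold over the members.

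NC 1 was not the lowest library for Slfn8 and Trim30a. Trim30a (ENSMUSG00000030921; chromosome 7, 104409025 to 104465193), which restrains NF-kappaB signalling in mice, had 160.5, 169 and 211 CPM across burn and 157, 182, 154 and 259.9 CPM in NC 1 to 4. NC 4 alone lay above the burn range. The difference was -0.07 (SE 0.15; edgeR adjusted p 0.897), and -0.15 without NC 1. Slfn8, of the Schlafen family of growth and antiviral regulators, had 115, 128, 98.6 and 152 CPM in NC 1 to 4 and 103 to 148 CPM in burn. Its relative Slfn5 had 131 CPM in NC 1, its lowest library, and 286 CPM in NC 4, its highest.

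Ifi44 had the largest positive difference of the members. It was also the rarest per length, and counts per library ran from 120 to 301. Ifi44 (ENSMUSG00000028037; chromosome 3, 151730922 to 151749960) had 6.35, 7.47 and 9.13 CPM in the lowest, median and highest burn library and 3.68, 7.58, 5.27 and 7.23 CPM in NC 1 to 4. NC 1 and 3 lay below every burn library and NC 2 and 4 among them. The log2 difference was 0.34 (SE 0.19; edgeR adjusted p 0.510; exact permutation p 0.0571, unadjusted) and 0.17 without NC 1. Ifi27l2a (ENSMUSG00000079017; chromosome 12, 103442167 to 103443680) had 151, 178 and 204 CPM across burn and 55.8, 170.2, 197 and 204 CPM in NC 1 to 4. NC 1 lay 3.21-fold below the median of the other libraries. The difference was 0.19 (SE 0.28; edgeR adjusted p 0.834) and -0.09 without NC 1. Rtp4, a receptor chaperone with antiviral activity, went the other way. It had 32.6 ± 6.8 CPM in burn and 42.1 ± 14.8 CPM in NC, with 60.5 CPM in NC 4, and its difference was -0.37 (edgeR adjusted p 0.531). Lgals3bp, a secreted galectin-3 binding protein, was lowest in NC 4, at 105 CPM, and highest in NC 2, at 156 CPM. Ifi35 was nearly constant in burn, at 23.1 to 25.4 CPM, and had 15.6, 26.1, 30.5 and 27.1 CPM in NC 1 to 4. Epsti1 was as steady in burn, at 144 to 158 CPM, and ran from 94.8 to 192 CPM in NC. Xaf1, a partner of the apoptosis inhibitor XIAP, had 37.5 ± 3.2 and 39.3 ± 8.8 CPM.

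The genes that produce and receive the signal were read from lists of the other pathway genes. None passed in edgeR, and DESeq2 called 0 of them. Of 21 listed interferon genes 6 were in the table and 1 was tested, Ifng, the type II interferon. Its mean was 1.33 ± 0.45 CPM in burn against 2.42 ± 1.14 in the NC libraries, which gave a log2 difference of -0.86 (edgeR adjusted p 0.407). For Ifng, NC 1 to 3 lay above every burn library and NC 4 inside the burn range. All 12 markers of natural killer cells, a source of Ifng, had lower values in burn, and their median log2 difference was -0.81. Of these, 9 had an unadjusted edgeR p under 0.05, 0 passed adjusted and DESeq2 called 1. The NC libraries were not alike for these markers. By sum, NC 2 and 3 stood above burn, at 1293 and 1378 CPM against 436 to 693 CPM. NC 1 lay inside the burn range by sum, at 624 CPM, but above it on mean log2 CPM. NC 4 was the lowest of all 10 libraries, at 380 CPM. The part of these markers in the Ifng difference was not tested. The type I genes in the table were near 0, with at most 2 reads of Ifna4 and Ifne, 10 of Ifnab and 11 of Ifnk in a library, and Ifnb1 was not analysed here. The 7 receptor and kinase genes varied little. Their mean log2 CPM lay between 7.23 and 7.31 in all libraries, NC 1 included, where it was 7.27. Ifnar1 had 128 ± 7 CPM in burn and 123 ± 13 CPM in NC, Ifnar2 43.2 ± 2.4 and 40.8 ± 4.9 CPM, Jak1 839 ± 51 and 839 ± 45 CPM, and Tyk2 97.7 ± 5.7 and 90.6 ± 11.7 CPM.

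Among 13 listed signalling factors 8 had higher and 5 lower values in burn. The smallest p belonged to Irf8, a factor of myeloid and plasmacytoid cells, at 179 ± 27 and 151 ± 11 CPM (edgeR adjusted p 0.459). The 18 tested genes of nucleic acid sensing upstream of interferon, of 21 listed, had 11 higher and 7 lower values, and Traf6, an adaptor of Toll-like receptors, had the smallest p there, with an edgeR adjusted p of 0.465. Of 91 other interferon-stimulated genes 85 were tested, 45 with higher and 40 with lower values and 8 at an unadjusted p under 0.05, beside 11.3% of all genes. Ifitm2, a membrane protein that blocks virus entry, had the smallest p of these, with a mean of 20.2 ± 1.7 CPM in burn against 27.8 ± 6.7 in the NC libraries (log2 difference -0.46, edgeR adjusted p 0.393). Sp140, a nuclear body protein, differed by 0.28, Trim34a by 0.29 and the T cell chemokine Cxcl9 by -1.50, on 5 to 58 reads a library, with edgeR adjusted p of 0.393, 0.400 and 0.403. NC 1 was the lowest library for 48 of the 85, beside 24.7% of all genes, and without it 55 of the 85 had lower values in burn, beside 47.3% of all genes.

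The genes outside the list with a library pattern most like it were found from the mean of the members' standardised log2 CPM over the 10 libraries. Among 13596 genes with a mean of at least 1 CPM, the 10 highest Pearson correlations were 0.91 to 0.95 and belonged to Parp12, Ifi207, Sdc3, Ifi204, Rasa4, Irgm1, Sun1, Sp100, Stx5a and Ncln. Of these, Parp12, Ifi207, Ifi204 and Sp100 were on the list of other interferon-stimulated genes. All 10 had their lowest value in NC 1, as Parp12 with 15.7 CPM there and 20.4 to 32.7 CPM elsewhere, and without NC 1 the correlations were 0.74 to 0.86. They are a description over 10 libraries that share NC 1 as an extreme.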

How the data were processed

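The authors deposited one table of read counts and FPKM per Ensembl gene and library, with gene symbols. Counts are named as such per the file headers and were whole numbers. The deposited FPKM values equalled counts over the column total and one length per gene, with a largest relative gap of 7.3e-15. Per the submitters' processing notes the build was mm10; the sources used here do not name the aligner, counter or strand handling. Per the labels' protocols, RNA was extracted with TRIzol and made into paired-end mRNA libraries.

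Counts were tested with edgeR 4.0.16 (R 4.3.3): filterByExpr with a minimum count of 10, TMM factors, quasi-likelihood F test of burn against NC with no covariate, and Benjamini-Hochberg adjustment over all genes at 0.05. DESeq2 1.42.0 and limma 3.58.1 were alternatives. List levels are means of log2 CPM with a prior count of 1. Exact permutation tests were two-sided over all 210 splits, and the smallest p they allow is 0.0048. Transcript copies were matched with blastn 2.17.0 on GENCODE M21, at 90% identity over 300 bases or more. Replicate pairs were compared by chi-square; the lowest value per degree of freedom was 14.2 in burn and 69.3 in NC, and every pair differed by more than counting noise. Scripts were tested on simulated counts.

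The members and the gene lists were chosen with earlier results of these data known. Given in full were, in each of 9 role groups, the member with the highest mean FPKM and the one with the smallest p. For the other pathway lists, the genes with the smallest p and the receptor and kinase genes were named; a signalling gene that the rule also names is not reported here. Other members named, and other pathway genes, were chosen after their values were seen.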

Additional observations from a re-analysis of the deposited data

Results flagged for a closer look

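In the NC group of 4 libraries, the distance of 1 library from its nearest neighbour took more of the whole range than Dixon's 95% critical value for 4 members. NC 1 was the low library for Irf7 (0.882), Oas1a (0.874) and Usp18 (0.868), and NC 4 the high one for Oasl1 (0.856). These are 10.8% of the members, against 6.97% of all genes tested in the same group. Chance flags about 1 in 20 groups. In the burn group of 6 libraries, 0 members went past that limit, against 8.74% of all genes.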

How the results depend on the processing

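The 37 members kept 0 calls in each of the 23 alternatives run. The count over all genes, 0 in edgeR, was 81 in DESeq2, 2 and 1 in limma on log2(FPKM + 1) and log2(FPKM + 0.1), and 4 in voom with sample quality weights. With 1 library left out it ran from 0 to 10. It was 10 without burn 1, all lower in burn, 3 without NC 4, and 1 without NC 1 on FPKM. The members' median difference, -0.03, ran from -0.21 to 0.06 with 1 library left out, and the difference in their mean log2 level, 0.03, from -0.22 to 0.11. Without both NC 1 and NC 3 the latter was -0.34, beyond the pooled SD of 0.34 from the main value.

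Directions that turned were those of small or widely spread differences, and the cause was not tested. In DESeq2, Oas1a was -0.012. With RLE factors, Oas1a was -0.014. With no filter, Oas1a was -0.029. On log2(FPKM + 1), Zbp1 was 0.071 and Trim30a 0.0072. On log2(FPKM + 0.1), Zbp1 was 0.078 and Trim30a 0.0079. In voom, Eif2ak2 was -0.047 and Oas1a -0.056. Without both NC 1 and NC 3, Eif2ak2 was -0.26, Irf7 -0.16, Oas1a -0.30, Rsad2 -0.51, Isg15 -0.34, Dtx3l -0.10 and Ifi27l2a -0.093. With RLE factors and no NC 1, Eif2ak2 was -0.032, Irf7 -0.12, Oas1a -0.26, Rsad2 -0.27, Isg15 -0.19, Dtx3l -0.046 and Ifi27l2a -0.11. With library totals and no NC 1, Irf7 was -0.044, Oas1a -0.18, Rsad2 -0.19, Isg15 -0.11 and Ifi27l2a -0.041. On log2(FPKM + 1) and no NC 1, Irf7 was -0.048, Oas1a -0.19, Rsad2 -0.13, Isg15 -0.10 and Ifi27l2a -0.042. With 1 library left out the ranges were -0.023 to 0.12 for Dtx3l, -0.099 to 0.15 for Eif2ak2, -0.091 to 0.30 for Ifi27l2a, -0.094 to 0.31 for Irf7, -0.17 to 0.66 for Isg15, -0.24 to 0.10 for Oas1a, -0.24 to 0.66 for Rsad2, -0.18 to 0.079 for Trim30a and -0.29 to 0.061 for Zbp1. The fits without NC 1 under another scaling or in limma, and the 8-library fit without the block, were chosen after seeing the data.

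Whether replicate numbers pair the libraries could not be settled from 4 pairs. Deviations of the 4 same-numbered pairs correlated at -0.07 to 0.34, and 1 of the 4 NC libraries correlated best with its own number. With the replicate block on those 8 libraries the members' median was -0.05 with 0 calls, and without the block -0.08, where Eif2ak2 was -0.011 and Oas1a was -0.082. The number of NC libraries, 4, limits the precision.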
